A study of Mus musculus with 3 samples.

Results

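The genes examined were those of mouse potassium channels and their subunits, taken as every gene symbol that starts with Kcn, apart from 1 symbol not analysed here, with at least 50 unique molecular identifiers (UMIs, tags that mark single captured RNA molecules) over all cells kept. Of 89 such symbols, 55 met this minimum, out of 15563 genes of any kind that did so and 22535 genes in the tables together. The 55 symbols comprised 42 pore-forming subunits, 12 auxiliary or interacting subunits and 1 long noncoding RNA, Kcnq1ot1, which is transcribed antisense within the Kcnq1 gene and encodes no channel, so the label of a potassium channel gene holds for 54 of them at most. The member just inside the minimum was Kcna2 with 50 UMIs and the symbol just outside it was Kcnmb3 with 46.

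The cells came from the kidney cortex of WT1CreERT2; Rosa26-tdTfl/+ mice, in which tamoxifen makes Wt1-expressing cells and their descendants carry the red fluorescent protein tdTomato (tdT). In the library named Sham, a renal cell mixture enriched for tdT+ cells was taken after sham surgery, and in IRI24h-TDN the same kind of mixture was taken 24 h after both kidneys had severe ischemia and reperfusion (IRI), a model of acute kidney injury. IRI24h-TD held tdT+ cells alone, mainly podocytes and WT1+ parietal epithelial cells (PECs) by its label, also 24 h after IRI. All 3 groups share the Cre and reporter alleles, the Cre is driven from the Wt1 locus, kidneys were pooled, and each group had 1 library, so that differences between groups have no replicate check, no test was run and an animal cannot be told apart from a treatment.

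Potassium channels let potassium leave or enter cells along its gradient and thereby set the membrane potential. Inward rectifiers (Kcnj) and two-pore-domain channels (Kcnk) carry resting currents, voltage-gated subunits (Kcna to Kcns) open on depolarization, calcium-activated channels (Kcnma1 and Kcnn) respond to intracellular calcium, and auxiliary subunits (Kcne, Kcnab, Kcnmb) tune the pores that they bind. In kidney tubules, basolateral channels return potassium that the sodium pump takes up and keep up the voltage for salt transport, and in contractile vessel cells channels oppose constriction.

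The 3 libraries held 69980443 to 93470709 UMIs in 8047 to 9689 cells kept, with medians of 7746 to 9529 UMIs per cell. Cells were clustered without any Kcn gene among the variable genes, and 25765 of 26760 cells fell in 14 classes named from marker genes, while 995 stayed unnamed. In podocyte-like cells, 10 of 10 listed podocyte markers were found in at least 25% of cells in every library, and in no class of a library with 50 cells or more was a marker of its own list at 0. Fibroblast-like cells met their markers less well, with 3 of 8 in Sham and IRI24h-TD and 8 of 8 in IRI24h-TDN, and they also carried podocyte-list RNA. Between 82 and 96 kept cell barcodes were shared by each pair of libraries, and leaving these out left the same 12 concentrated genes given below. Levels are given as UMIs per 1000000 UMIs of a class in a library (CPM), which compare 1 gene between classes and not different genes, and intervals are exact Poisson or conditional binomial 95% intervals that cover counting error only.

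The members held 120177 UMIs, from 50 for Kcna2 to 35462 for Kcnj16, with a median of 296. Inward rectifiers took 48.6% of these UMIs with 7 genes, voltage-gated subunits 16.8% with 22 genes, two-pore-domain channels 10.5% with 6 genes, auxiliary subunits 5.51% with 12 genes, calcium- or sodium-activated channels 2.78% with 7 genes, and Kcnq1ot1 alone 15.8%. A mean level of 10 CPM in some class was reached by 39 members, whereas 16 stayed below it in every class. By summed level, potassium channel RNA was abundant in mural cells and in the tubule classes other than intercalated-like cells. It was sparse in podocyte-like, endothelial-like, monocytic-like and lymphocyte-like cells. Without Kcnq1ot1, the members summed to 1988 CPM in proximal tubule epithelial-like (PTEC-like) cells of Sham, 2268 CPM in connecting tubule and principal-like cells and 1573 CPM in smooth muscle and renin-like cells, against 368.0 CPM in intercalated-like cells, 178.7 CPM in monocytic-like cells, 156.3 CPM in podocyte-like cells and 132.6 CPM in endothelial-like cells. In podocyte-like cells the sum was 125.0 CPM in IRI24h-TDN and 127.9 CPM in IRI24h-TD, below Sham in both.

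**Figure D1:**
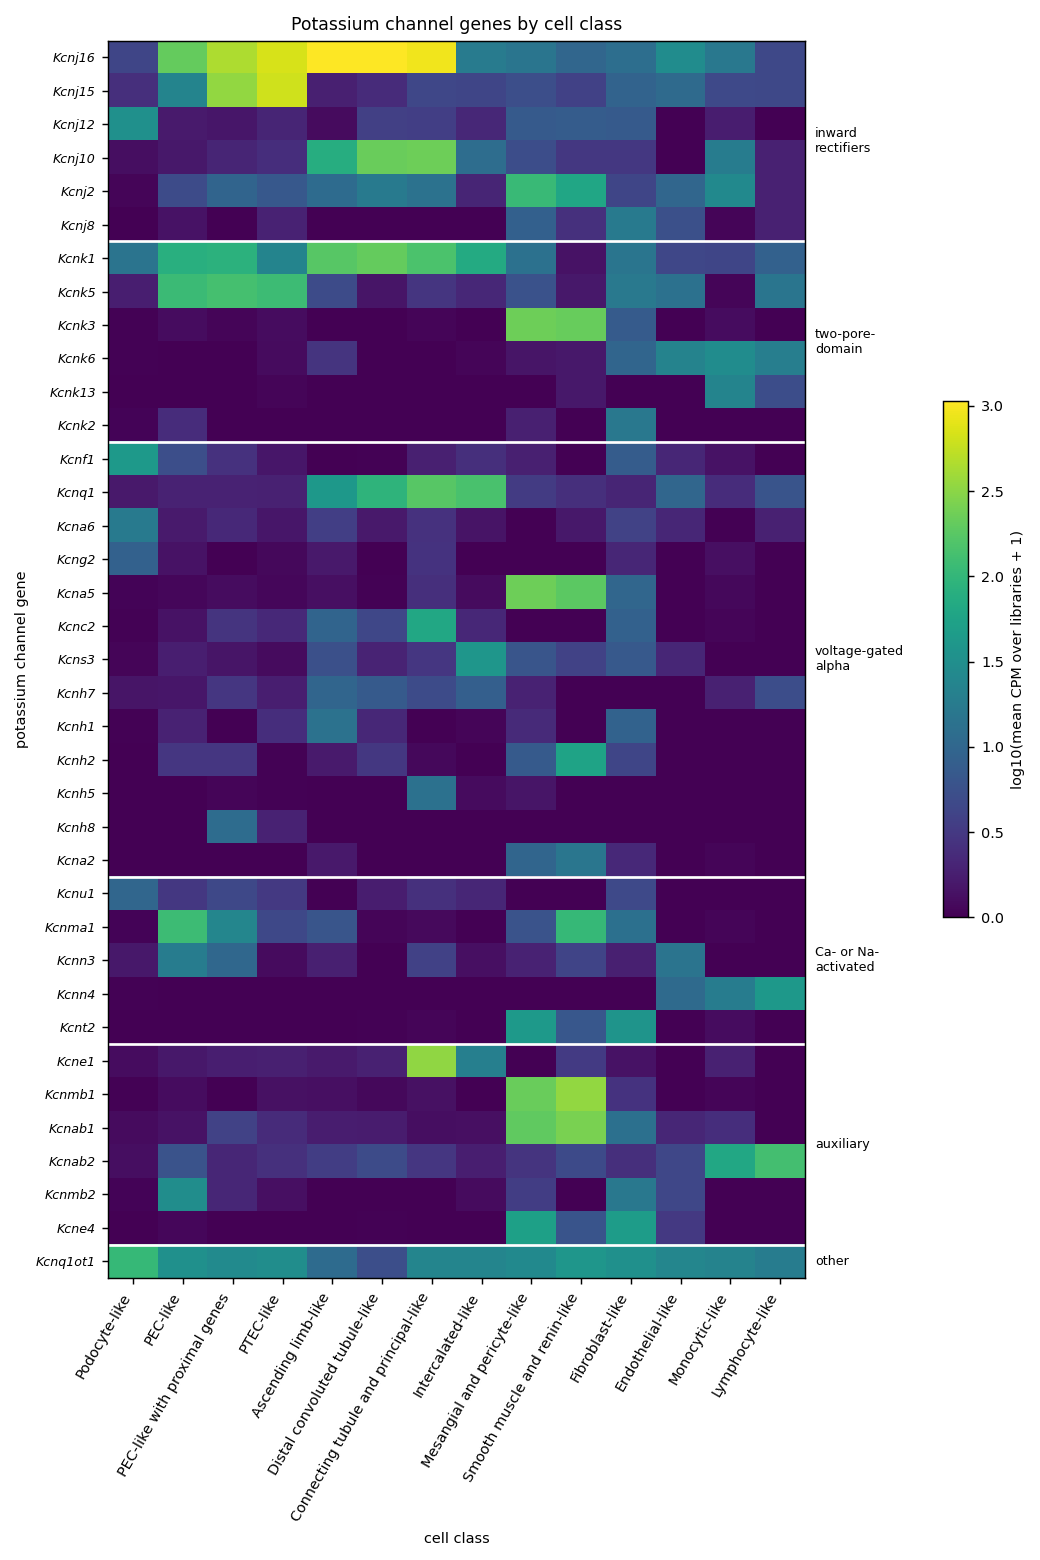
Mean level over libraries of the 37 potassium channel genes named in the text (rows) in the 14 cell classes (columns), on a log color scale of CPM. Kcnj16 spans the tubule classes apart from intercalated-like cells, a block of genes including Kcnmb1, Kcnk3 and Kcna5 fills both mural classes, and Kcnf1, Kcnj12 and Kcna6 stand out in podocyte-like cells.

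A gene was called concentrated when its mean level over libraries in the leading class was at least 4 times that in the next class, with at least 20 UMIs there. This held for 12 of the 55 members, or 21.8%, against 8.22% of all 15563 genes with 50 UMIs. The median ratio of leading to next class was 1.78 over the members and 1.28 over all genes. In 9 of the 12 the same class led in all 3 libraries, and the class of the other 3, Kcns3, Kcnh2 and Kcnk13, led in Sham and IRI24h-TDN but had fewer than 20 cells in IRI24h-TD, too few for a level. Among the 9, the lead of Kcnk2 and of Kcnh5 in IRI24h-TD rested on 1 UMI each (3.39 and 4.11 CPM). Of the 12, 4 led in podocyte-like cells, 3 in connecting tubule and principal-like cells and 1 each in smooth muscle and renin-like, intercalated-like, monocytic-like, fibroblast-like and PEC-like with proximal genes. Just inside the 4-fold limit were Kcng2 (4.34) and Kcnj12 (4.81), and near it on the outside was Kcnq1ot1 (2.78).

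Podocyte-like cells, 18828 in all, were marked by Kcnf1, Kcnj12, Kcna6 and Kcng2. Kcnf1 and Kcng2 encode electrically silent voltage-gated subunits that modify partner channels, Kcna6 a delayed rectifier of the Shaker family, and Kcnj12 a strong inward rectifier. The windows before the starts of Kcnf1, Kcnj12 and Kcna6 are shown because these genes distinguish the class at 10 CPM or more. They hold the 250 bases before the RefSeq transcription start (build GRCm38.p6), 5′ to 3′ on the strand of the gene, with none of the motifs searched below apart from an E-box in that of Kcnj12, so that no letters are in capitals.
Kcnf1 (chr12:17176889-17177138, minus strand): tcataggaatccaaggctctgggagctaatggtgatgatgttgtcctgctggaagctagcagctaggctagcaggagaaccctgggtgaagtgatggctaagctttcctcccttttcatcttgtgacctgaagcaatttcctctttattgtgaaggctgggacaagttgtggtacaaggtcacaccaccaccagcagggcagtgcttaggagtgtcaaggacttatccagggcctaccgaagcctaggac
Kcnj12 (chr11:61065554-61065803, plus strand): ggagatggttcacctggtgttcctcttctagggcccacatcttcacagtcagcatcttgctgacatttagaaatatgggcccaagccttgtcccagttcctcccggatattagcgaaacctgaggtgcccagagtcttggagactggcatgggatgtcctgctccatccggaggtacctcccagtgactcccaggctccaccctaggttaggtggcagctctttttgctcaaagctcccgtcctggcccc
Kcna6 (chr6:126740675-126740924, minus strand): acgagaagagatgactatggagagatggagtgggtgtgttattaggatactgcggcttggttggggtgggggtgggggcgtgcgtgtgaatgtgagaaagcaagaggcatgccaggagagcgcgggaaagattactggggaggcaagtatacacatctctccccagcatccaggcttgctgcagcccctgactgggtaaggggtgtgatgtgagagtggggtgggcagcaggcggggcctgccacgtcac

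Kcnf1 stood at 29.2 CPM in podocyte-like cells of Sham, 47.3 CPM in IRI24h-TDN and 51.5 CPM in IRI24h-TD, 6.49 times the mean of the next class, fibroblast-like cells. Both IRI libraries lay above Sham. The ratio of IRI24h-TDN to Sham was 1.62 (1.51 to 1.74), short of the 2-fold limit past which a gene is said here to rise or fall, with at least 50 UMIs in both libraries together and 50 cells in each. The level was higher in IRI24h-TDN in 15 of 15 podocyte-like clusters present in both libraries. The share of podocyte-like cells with a Kcnf1 UMI was 17.6%, 30.6% and 33.6% in the order Sham, IRI24h-TDN, IRI24h-TD, and 6.38%, 10.6% and 11.5% after each cell was thinned to 2400 UMIs. In PTEC-like cells, which served as the comparison for free RNA, it was 0.490%, 0.625% and 0.735% unthinned, with median depths of 6844, 15779 and 9209 UMIs against 8242, 9336 and 9569 UMIs in podocyte-like cells.

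Kcnj12 stood at 38.5, 27.9 and 29.1 CPM in podocyte-like cells, with the libraries in the same order. It was highest in Sham, the opposite order to Kcnf1, with a ratio of 0.724 (0.672 to 0.779) that did not reach 2-fold. The level was lower in IRI24h-TDN in 14 of 15 clusters. Kcng2 stood at 7.05, 7.47 and 8.33 CPM, and the ratio of 1.06 had an interval of 0.904 to 1.24 that includes equality.

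Kcna6 was the concentrated gene with the greatest difference between libraries in podocyte-like cells. It stood at 31.1 CPM in Sham, 8.27 CPM in IRI24h-TDN and 9.98 CPM in IRI24h-TD, so both IRI libraries lay at 8 to 10 CPM and Sham above 30. The IRI24h-TDN level was 0.266 of that in Sham (0.238 to 0.298), from 1173 and 421 UMIs. Kcna6 was lower in IRI24h-TDN in 14 of 15 clusters, whose medians were 26.9 CPM in Sham and 8.18 CPM in IRI24h-TDN. At matched depth the ratio was 0.411 in cells of 2400 to 5000 UMIs, 0.301 in cells of 5000 to 10000 UMIs and 0.261 above that. The thinned share of cells with a UMI was 7.19% in Sham and 1.97% and 2.48% in the IRI libraries. Kcna6 overlaps an antisense gene model, and the strand used in the counting is not given in the sources used here. Kcnu1, a pH-sensitive relative of the large-conductance channel best known from sperm, led in podocyte-like cells at 9.69, 8.19 and 8.88 CPM without reaching the 4-fold limit.

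**Figure D2:**
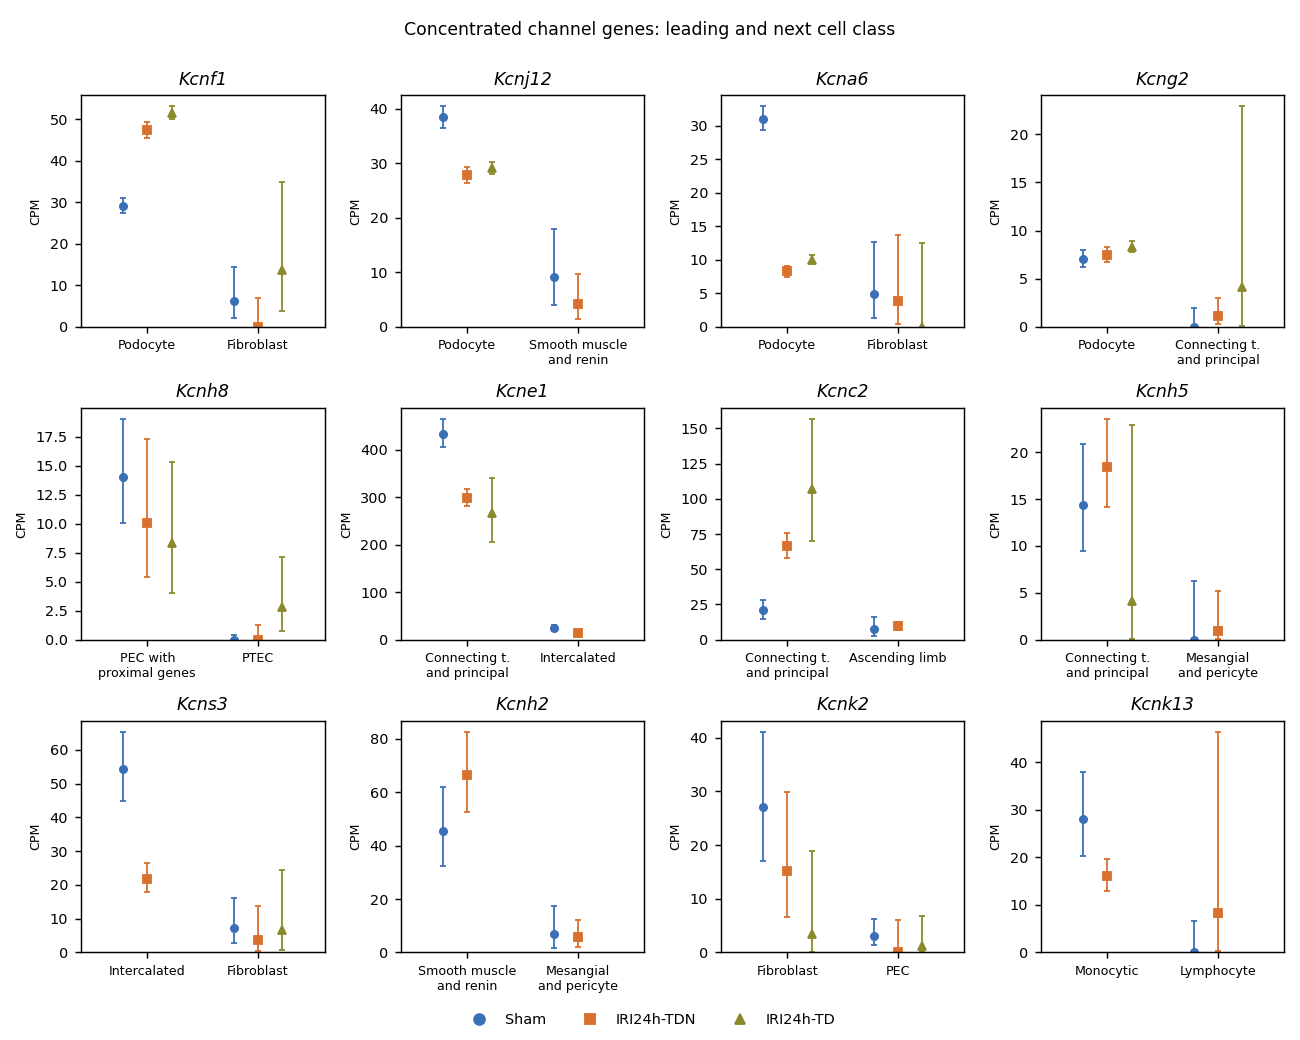
Levels in CPM by library in the leading class and in the next class for the 12 concentrated genes, with exact 95% Poisson intervals (counting error only). Kcnf1 is higher in both IRI libraries than in Sham, Kcna6 is lower in both, and Kcne1 lies above 260 CPM in connecting tubule and principal-like cells of all 3 libraries.

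The noncoding Kcnq1ot1 was counted in podocyte-like cells at 165.4 CPM in Sham, 70.6 CPM in IRI24h-TDN and 84.0 CPM in IRI24h-TD. The level was lower in IRI24h-TDN than in Sham in 13 of 14 classes and 35 of 36 clusters held by both libraries, and it passed 2-fold in 6 of 9 classes with UMIs enough. The ratio was 0.427 (0.410 to 0.445) in podocyte-like cells and 0.105 (0.0629 to 0.166) in PTEC-like cells, which fell from 60.5 to 6.37 CPM. Kcnq1ot1 lies within Kcnq1 on the opposite strand, and without the strand setting of the counting RNA of these genes cannot be told apart, which limits the values of both. Kcnq1ot1 moved with cell depth. In podocyte-like cells of 2400 to 5000 UMIs it stood at 260.0 CPM in Sham and 257.4 CPM in IRI24h-TDN, a ratio of 0.990, whereas in cells of 5000 to 10000 UMIs it stood at 166.0 and 74.1 CPM. Over the same 3 depth ranges, Neat1, another nuclear noncoding RNA chosen after its values were seen, had ratios of 0.239, 0.120 and 0.132, and Malat1 had 1.14, 0.785 and 0.879.

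PECs line the capsule around the glomerulus, and 365 PEC-like cells and 453 PEC-like cells with proximal genes were found. Kcnma1, the pore of the large-conductance calcium-activated channel, had a high level in PEC-like cells and in smooth muscle and renin-like cells, the latter leading in Sham and the former in IRI24h-TDN. In PEC-like cells it stood at 44.2 CPM in Sham, 164.3 CPM in IRI24h-TDN and 140.6 CPM in IRI24h-TD, so both IRI libraries were more than 3 times above Sham. The IRI24h-TDN ratio was 3.72 (2.81 to 4.92), and the share of cells with a UMI went from 27.4% to 63.0%, or from 11.4% to 25.9% thinned, against 0.0445% and 0.0188% in podocyte-like cells. PEC-like cells with proximal genes showed the same direction at lower levels, with 8.89, 23.3 and 37.4 CPM and a ratio of 2.62 (1.499 to 4.616), which was 1.70 and short of 2-fold when clusters were drawn at resolution 3. The PEC markers were in both classes also higher in the IRI libraries, summing to 8016, 12940 and 13110 CPM in PEC-like cells and to 3334, 6141 and 7927 CPM in those with proximal genes, where the PTEC markers summed to 9001, 3409 and 2160 CPM. Their part in the result was not tested.

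Its auxiliary subunit Kcnmb2 went the other way in PEC-like cells, at 62.7 CPM in Sham, 11.6 CPM in IRI24h-TDN and 13.3 CPM in IRI24h-TD, a ratio of 0.185 (0.0733 to 0.391). In thinned PEC-like cells Kcnmb2 was found in 13.8% of cells with Kcnma1 and 13.9% of cells without it. Such shares for a pair of genes, here and below, pool the cells of the 3 libraries. Differences between libraries in either gene enter them, as for these 2 genes, so they do not tell whether cells of 1 library hold both. Kcnn3, a small-conductance calcium-activated channel, stood at 29.96, 11.62 and 12.12 CPM. It was highest in Sham, with a ratio of 0.388 (0.151 to 0.839). The IRI24h-TDN values of Kcnmb2 and of Kcnn3 each rested on 7 UMIs in 5 cells. In PEC-like cells 1 of 9 members rose and 3 fell past 2-fold, Kcnmb2 and Kcnn3 among the latter, against 3.92% and 8.90% of all genes in these directions.

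In PEC-like cells with proximal genes, Kcnma1 rose while Kcnn3 (15.7, 3.11 and 9.14 CPM) and Kcnq1ot1 (40.0, 11.7 and 29.9 CPM) fell between Sham and IRI24h-TDN. The IRI24h-TDN values rested on 4 UMIs in 2 cells for Kcnn3 and 15 UMIs in 7 cells for Kcnq1ot1. The ratios were 0.198 (0.0517 to 0.541) and 0.291 (0.158 to 0.501). In all, 1 of 9 members rose and 3 fell, against 5.37% and 8.02% of all genes. Kcnh8, a slow voltage-gated channel of the ether-a-go-go family, was concentrated in this class at 14.02, 10.1 and 8.31 CPM, 11.7 times the mean in PTEC-like cells. It was found in 8.25% of these cells in IRI24h-TDN and 9.20% in IRI24h-TD.

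Proximal tubule cells recover most filtered solutes and depend on potassium channels for the driving voltage. Kcnj15 and Kcnj16, inward rectifier subunits that can assemble together, and Kcnk5, an acid-sensitive two-pore-domain channel, were the leading members in PTEC-like cells and in PEC-like cells with proximal genes. The window before the first of 4 listed starts of Kcnj16 is printed because Kcnj16 held the most UMIs of all members and its match to an HNF1 half-site, in capitals and read as GTTAAT on the opposite strand, lies 14 to 9 bases before the start.
Kcnj16 (chr11:110967783-110968032, plus strand): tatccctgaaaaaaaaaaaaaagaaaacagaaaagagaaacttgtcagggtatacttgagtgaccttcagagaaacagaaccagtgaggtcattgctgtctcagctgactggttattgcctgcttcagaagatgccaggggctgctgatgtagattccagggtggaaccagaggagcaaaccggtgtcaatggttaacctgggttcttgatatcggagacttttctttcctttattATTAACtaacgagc

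Kcnj15 stood at 887.0 CPM in PTEC-like cells of Sham, 490.4 CPM in IRI24h-TDN and 527.3 CPM in IRI24h-TD, and at 388.1, 313.9 and 317.5 CPM in PEC-like cells with proximal genes. PTEC-like cells led in every library and Sham was above both IRI libraries in both classes, with a ratio of 0.553 (0.522 to 0.585) in PTEC-like cells that did not reach 2-fold, but did so with edgeR's factors (0.474) and DESeq2's (0.484). Kcnj16 stood at 900.5, 594.3 and 581.5 CPM in PTEC-like cells. Kcnk5 stood at 129.2, 88.6 and 134.6 CPM, so that its IRI libraries lay on either side of Sham. In thinned PTEC-like cells, Kcnj16 was found in 82.0% of cells with Kcnj15 and 73.6% of cells without it.

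Among the members past 2-fold in PTEC-like cells were Kcnk1, a two-pore-domain channel, which rose from 2.51 to 11.4 CPM, and Kcnj2 and Kcnq1ot1, which fell. Kcnj2, a strong inward rectifier, went from 8.60 to 1.34 CPM. In IRI24h-TD these stood at 52.7 CPM for Kcnk1 and 7.63 CPM for Kcnj2, so that Kcnj2 was close to Sham there. The PTEC markers of the class summed to 64800, 10340 and 7678 CPM and the PEC markers in it to 298.3, 1466 and 3387 CPM, the latter in the same order as Kcnk1, and their part in these differences was not tested. The 1 of 7 members up and 3 of 7 down stood against 16.6% and 13.0% of all genes, and the median gene of the class itself moved by 0.16 on the log2 scale. Different clusters made up PTEC-like cells in the libraries. Clusters 17 and 25 held 425 and 305 Sham cells but 25 and 6 IRI24h-TDN cells, while cluster 35 held 40 and 68. Kcnj15 and Kcnj16 were lower, and Kcnk1 higher, in IRI24h-TDN in each of the 3 clusters held by both libraries with 20 cells or more. In cluster 35, for example, Kcnj15 stood at 982.5, 563.5 and 553.3 CPM and Kcnk1 at 0 (up to 9.20 by its interval), 10.4 and 50.2 CPM.

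The distal segments shared Kcnj10 and Kcnj16, which form the basolateral channel that senses plasma potassium in the distal convoluted tubule. Kcnj16 was found in 93.1% of thinned distal convoluted tubule-like cells with Kcnj10 and 89.3% of those without, and in 84.0% against 78.4% in connecting tubule and principal-like cells. The level of Kcnj16 stood at 863.8, 1197 and 1121 CPM in distal convoluted tubule-like cells (again in this order), at 1066, 854.2 and 843.1 CPM in connecting tubule and principal-like cells, and at 985.5 and 1099 CPM in ascending limb-like cells of the first 2. The order of these 3 classes was reversed between Sham and IRI24h-TDN.

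Kcnj10 did not keep its level. It stood at 392.5 CPM in connecting tubule and principal-like cells of Sham, 161.6 CPM in IRI24h-TDN and 119.3 CPM in the 27 cells of IRI24h-TD. The ratio was 0.412 (0.368 to 0.460), and both clusters of the class had it, with 414.6 to 173.1 CPM in cluster 24 and 368.1 to 149.5 CPM in cluster 29. The distal convoluted tubule markers in this class went the same way, at 2414, 1120 and 604.6 CPM, as did its own markers at 20660, 13380 and 13240 CPM. In ascending limb-like cells Kcnj10 stood at 132.9 CPM in Sham and 18.6 CPM in IRI24h-TDN, 7.16-fold lower. The summed level of the distal convoluted tubule markers in those ascending limb-like cells went with it, from 1429 to 126.4 CPM, and that of the class's own markers from 24200 to 5060 CPM. The part of these markers in either result was not tested. In distal convoluted tubule-like cells, whose 47 Sham cells were under the minimum of 50, Kcnj10 stood at 256.1, 226.5 and 163.8 CPM.

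**Figure D3:**
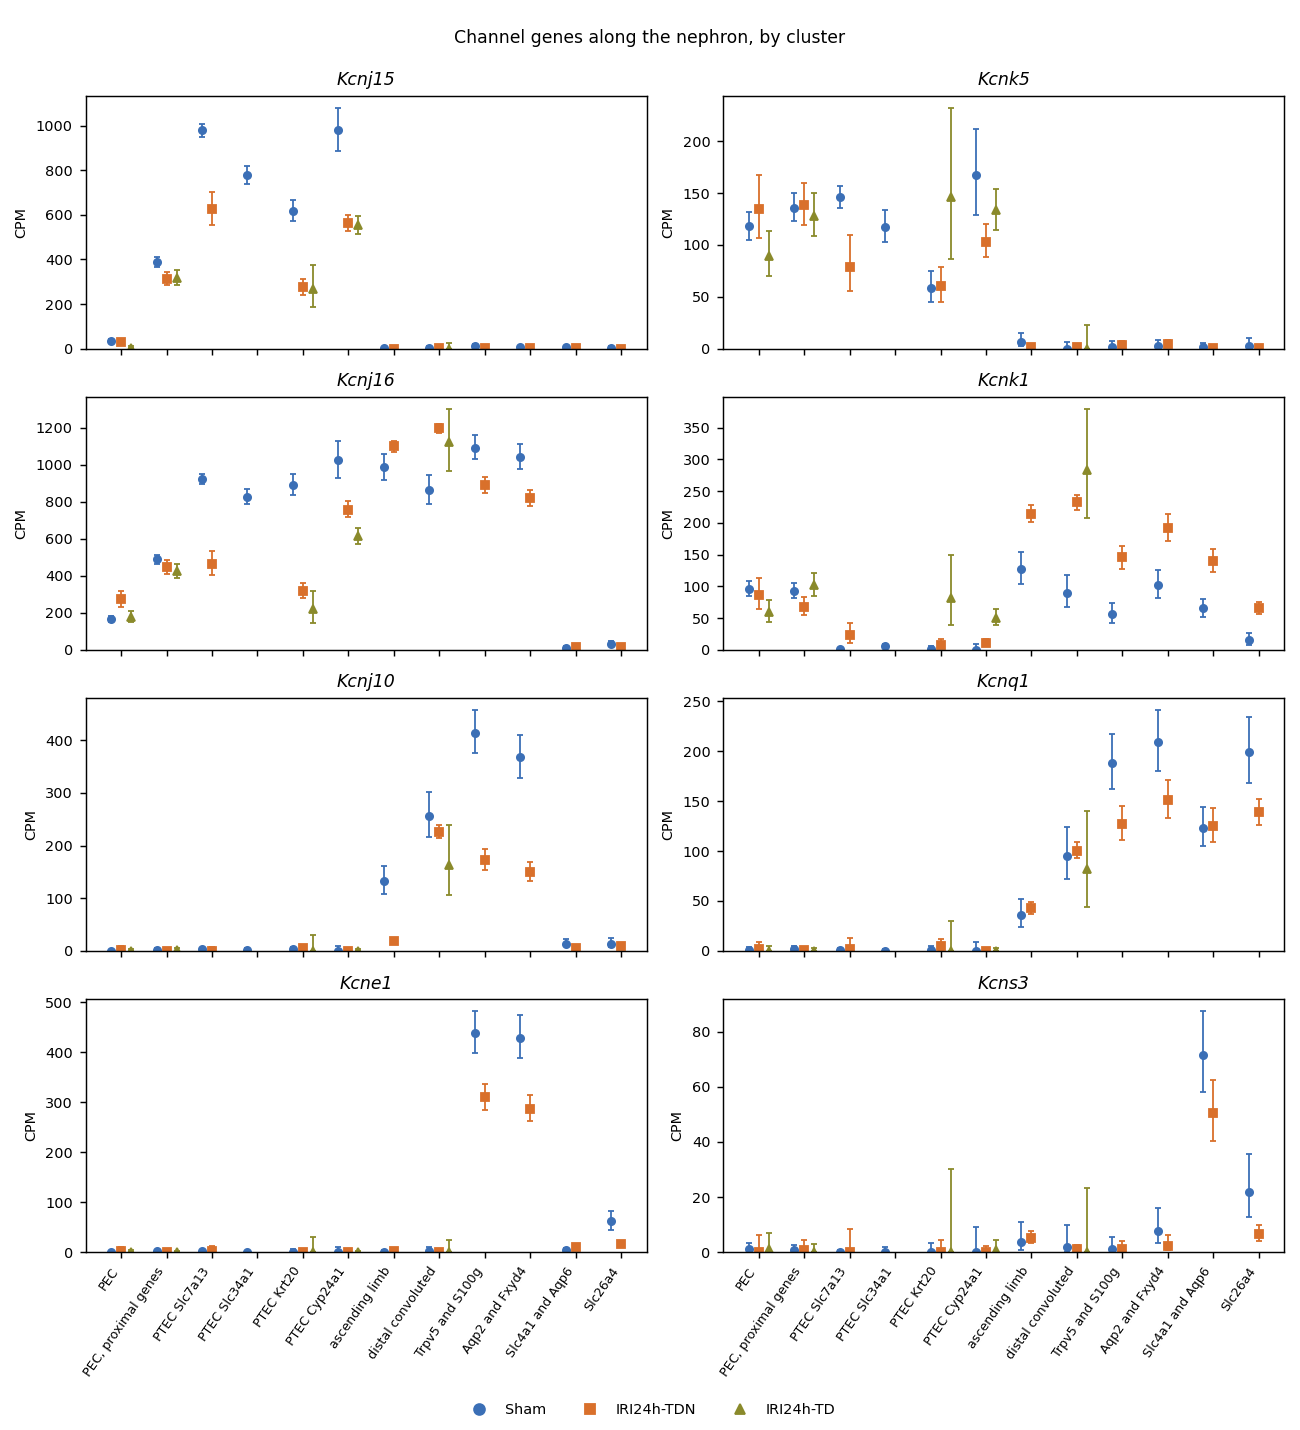
Levels in CPM by library of 8 channel genes over the parietal and tubule clusters in nephron order, with exact 95% Poisson intervals and clusters of 1 class told apart by their marker genes. Kcnj15 is high in the PTEC-like clusters and low in distal ones, Kcnj10 is lower in IRI24h-TDN than in Sham in the ascending limb, Trpv5 and Aqp2 clusters, and Kcnk1 is higher in IRI24h-TDN in every distal cluster shown.

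Kcnk1 was higher in IRI24h-TDN than in Sham in every distal class. It stood at 78.1, 168.0 and 193.3 CPM in connecting tubule and principal-like cells, a ratio of 2.15 (1.79 to 2.60), at 90.1, 232.0 and 283.5 CPM in distal convoluted tubule-like cells, at 126.6 and 214.4 CPM in ascending limb-like cells and at 47.6 and 91.6 CPM in intercalated-like cells. The last ratio, 1.93 (1.55 to 2.42), lay just under 2-fold, and clusters 24, 26, 28 and 29 each had the higher value in IRI24h-TDN. In podocyte-like cells the order was the reverse, at 17.3, 12.6 and 10.9 CPM.

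Connecting tubule and principal-like cells were marked by Kcne1, a single-span auxiliary subunit best known as a partner of Kcnq1, by Kcnc2, a fast delayed rectifier, and by Kcnh5, of the ether-a-go-go family. Kcne1 stood at 434.5, 298.7 and 267.3 CPM in Sham, IRI24h-TDN and IRI24h-TD, 17.1 times the mean in intercalated-like cells. A Kcne1 UMI was found in 78.5%, 64.2% and 44.4% of cells, against 0.401%, 0.225% and 0.0333% in podocyte-like cells. Kcnq1 stood at 198.1, 138.9 and 181.0 CPM there and at 149.9 and 134.0 CPM in intercalated-like cells, so that Kcnq1 spanned both classes and Kcne1 only the first at this level. In thinned connecting tubule and principal-like cells Kcne1 was found in 43.2% of cells with Kcnq1 and in 45.8% of cells without it.

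Kcnc2 rose from 20.7 CPM in Sham to 66.6 CPM in IRI24h-TDN, with 106.9 CPM in IRI24h-TD, a ratio of 3.21 (2.28 to 4.63). Both clusters had the rise, from 12.1 to 51.0 CPM in cluster 24 and from 30.2 to 83.0 CPM in cluster 29. Kcnh5 stood at 14.3, 18.4 and 4.11 CPM, the last value in the 27 IRI24h-TD cells. Of 9 members tested in this class 2 rose (Kcnc2 and Kcnk1) and 2 fell (Kcnj10 and Kcnq1ot1), against 7.41% and 5.60% of all genes.

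In ascending limb-like cells 1 of 8 members rose and 1 fell, against 9.59% and 8.88% of all genes. The gene that rose was Kcnh1, an ether-a-go-go channel, from 3.76 CPM on 3 UMIs to 22.2 CPM on 105 UMIs, a ratio of 5.89 with a wide interval of 1.96 to 29.03. It was found in 13.4% of ascending limb-like cells of IRI24h-TDN, against 0.0563% of podocyte-like cells. In intercalated-like cells, which handle acid and base, none of 8 members rose and 2 fell, against 7.64% and 4.63% of all genes. They were Kcnq1ot1 (36.0 to 9.03 CPM) and Kcns3, a silent modifier subunit concentrated in this class (54.3 to 21.8 CPM, a ratio of 0.402, 0.305 to 0.530). Kcns3 differed between the clusters of this class, at 71.7 and 50.6 CPM in cluster 26 and 22.0 and 6.45 CPM in cluster 28 of Sham and IRI24h-TDN. Within cluster 26 the difference did not reach 2-fold, and cluster 28 held 52 of the intercalated-like cells in Sham and 198 in IRI24h-TDN.

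Mural cells, which wrap vessels and the glomerular tuft and contract, shared a set of channel genes. There were 348 mesangial and pericyte-like and 363 smooth muscle and renin-like cells. In the former, smooth muscle and renin markers summed to 19900 CPM in Sham and 23200 CPM in IRI24h-TDN. Their own markers summed to 23300 and 14530 CPM. Ren1 came first among the top genes of the mesangial and pericyte-like cluster, so the names do not settle which mural class held the renin cells. Because 10 members at 10 CPM or more had both mural classes as leading and next class, the 4-fold rule passed over most of them. With both mural classes joined, and both PEC classes joined, 19 members were concentrated, against 10.2% of all genes, and among the 7 added were Kcna2, Kcna5, Kcnab1, Kcnk3 and Kcnmb1. This grouping was chosen after seeing the data. Kcnmb1 and Kcna5 are shown by the 250 bases before their starts because the genes mark both mural classes, and again no searched motif was found in them other than an E-box in that of Kcna5. Kcnk3 is not in the promoter table used here.
Kcnmb1 (chr11:33962763-33963012, plus strand): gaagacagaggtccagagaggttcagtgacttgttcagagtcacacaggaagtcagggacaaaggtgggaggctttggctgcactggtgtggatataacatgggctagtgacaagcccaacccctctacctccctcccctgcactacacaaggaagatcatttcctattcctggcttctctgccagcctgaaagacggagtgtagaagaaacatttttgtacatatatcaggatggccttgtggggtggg
Kcna5 (chr6:126535556-126535805, minus strand): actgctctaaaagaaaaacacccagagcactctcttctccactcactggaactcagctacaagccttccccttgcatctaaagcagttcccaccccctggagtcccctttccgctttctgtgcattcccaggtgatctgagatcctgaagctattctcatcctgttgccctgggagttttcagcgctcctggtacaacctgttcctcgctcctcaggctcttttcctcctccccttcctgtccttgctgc

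Kcnmb1, the smooth muscle subunit of the large-conductance channel, stood at 338.7 and 342.4 CPM in smooth muscle and renin-like cells and at 208.4 and 217.6 CPM in mesangial and pericyte-like cells of Sham and IRI24h-TDN. It was 162 times higher in joined mural cells than in the next class and was found in 74.8% and 74.6% of smooth muscle and renin-like cells, against at most 0.0668% of podocyte-like cells. In neither class did it pass 2-fold between libraries. Its pore Kcnma1, by contrast, was found mainly in smooth muscle and renin-like cells, at 111.4 and 98.7 CPM, against 5.12 and 4.69 CPM in mesangial and pericyte-like cells. In thinned smooth muscle and renin-like cells Kcnmb1 was found in 60.8% of cells with Kcnma1 and 47.4% of cells without it. Kcnmb1 overlaps Kcnip1 on the opposite strand.

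Kcnk3, an acid-sensitive two-pore-domain channel, stood at 230.6 and 227.0 CPM in mesangial and pericyte-like and 221.6 and 191.5 CPM in smooth muscle and renin-like cells. Kcna5, a delayed rectifier of vascular muscle, stood at 213.5 and 243.0 CPM and at 204.6 and 165.0 CPM in the same order, and Kcnab1, a cytoplasmic subunit of Shaker-type channels, at 189.6 and 195.1 CPM and at 284.1 and 241.2 CPM. All 3 were present in both mural classes, and none passed 2-fold between libraries.

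Kcnh2, the rapid delayed rectifier of the heart, was concentrated in smooth muscle and renin-like cells at 45.5 and 66.3 CPM, 8.97 times the mean in mesangial and pericyte-like cells (6.83 and 5.63 CPM). Mesangial and pericyte-like cells held more Kcnt2, a sodium-activated channel, at 41.0 and 42.2 CPM against 4.55 and 6.63 CPM, and more of the auxiliary Kcne4, at 42.71 and 60.04 CPM against 4.55 and 5.80 CPM. Kcnj2 rose in mesangial and pericyte-like cells from 66.6 to 153.8 CPM, a ratio of 2.31 (1.62 to 3.36), and stood at 60.2 and 61.4 CPM in smooth muscle and renin-like cells. It was the only member of 8 to pass 2-fold in mesangial and pericyte-like cells, with none down, against 4.77% up and 4.96% down of all genes. In smooth muscle and renin-like cells Kcnq1ot1 fell from 56.8 to 19.9 CPM and no other of 9 members passed, against 5.13% up and 3.78% down.

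**Figure D4:**
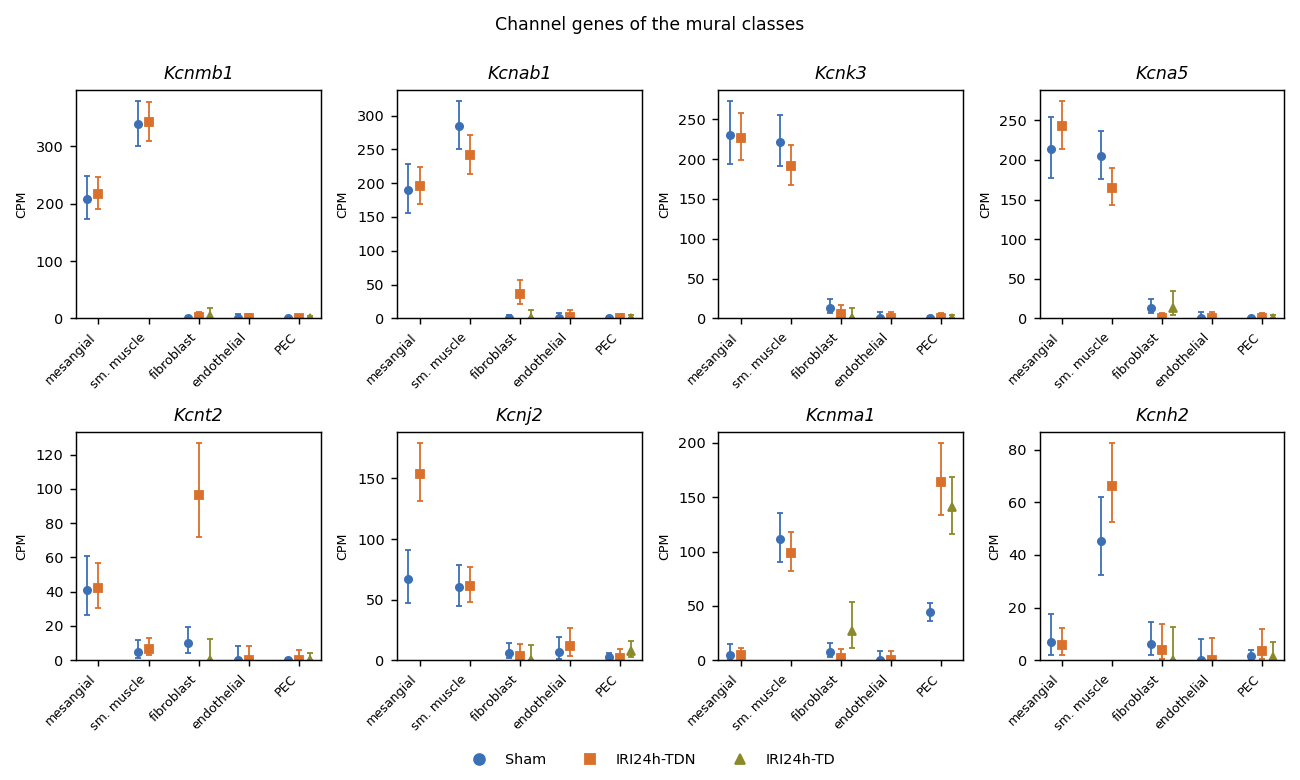
Levels in CPM by library of 8 channel genes in the mesangial and pericyte-like, smooth muscle and renin-like, fibroblast-like, endothelial-like and PEC-like classes, with exact 95% Poisson intervals. Kcnmb1, Kcnk3, Kcna5 and Kcnab1 are at 165.0 CPM or more in both mural classes, Kcnh2 is high in smooth muscle and renin-like cells, Kcnma1 there and in PEC-like cells, and Kcnj2 is higher in IRI24h-TDN in mesangial and pericyte-like cells.

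The subunit pair of the vascular ATP-sensitive channel, Kcnj8 and Abcc9, differed in level, Kcnj8 being sparse. Kcnj8 stood at 8.54 and 6.57 CPM in mesangial and pericyte-like cells, and Abcc9 at 71.8 and 50.7 CPM. In fibroblast-like cells Kcnj8 stood at 7.39, 39.7 and 3.39 CPM and Abcc9 at 40.7, 185.5 and 0 CPM in Sham, IRI24h-TDN and IRI24h-TD, so that both were highest in the 41 cells of IRI24h-TDN. Kcne4 (19.7, 113.5 and 6.79 CPM) and Kcnt2 (9.86, 96.5 and 0 CPM) had the same order there, the interval of the last value reaching 12.5 CPM. Kcnt2 is not among the genes listed in the counts of IRI24h-TD, so that its 0 there was filled in. The fibroblast markers summed to 6471, 35510 and 2844 CPM and the podocyte markers to 4488, 1989 and 10190 CPM in these libraries of the class, and their part in these values was not tested. Kcnk2, a mechanosensitive two-pore-domain channel, was concentrated in fibroblast-like cells at 27.1, 15.1 and 3.39 CPM, on 31 UMIs in all.

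In monocytic-like cells, the phagocytes of the kidney, Kcnab2 and Kcnk6 rose and none of 8 members fell, against 13.3% and 6.68% of all genes. The median gene of the class moved by 0.24 on the log2 scale. Kcnab2, a cytoplasmic subunit of Shaker-type channels, went from 33.4 to 93.8 CPM, a ratio of 2.81 (2.11 to 3.82), and Kcnk6, a two-pore-domain channel found in macrophages, from 18.3 to 39.2 CPM, a ratio of 2.14 (1.44 to 3.29). Kcnj2 did not move, at 26.2 CPM in both libraries. Kcnk13, a two-pore-domain channel of microglia, was concentrated here at 28.14 and 16.04 CPM. In lymphocyte-like cells, with 77 and 20 cells, Kcnab2 stood at 92.8 and 166.4 CPM and Kcnn4, the calcium-activated channel of lymphocytes, at 39.3 and 41.6 CPM.

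Endothelial-like cells had no member with UMIs enough for the comparison. Kcnj16 and Kcnq1ot1 were among their 3 leading members by mean level, at 28.3 and 23.6 CPM. By the same mean, Kcnj16 stood at 692.1 CPM in PTEC-like and 1061 CPM in distal convoluted tubule-like cells. The part of free RNA in the endothelial-like value was not tested.

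Over the 10 classes compared, 92 pairs of a member and a class had at least 50 UMIs in Sham and IRI24h-TDN together, from 39 members. Past 2-fold were 30 pairs, 9 up and 21 down, from 18 members. These were 9.78% up and 22.8% down, against 8.05% up and 7.43% down of all pairs of a gene and a class, so that the share up was near that of all genes, and 15 of the 21 down were of genes other than Kcnq1ot1. Nearest to the limit were Kcnk6 in monocytic-like cells (2.14) inside it and Kcnq1 in podocyte-like cells (1.98) outside it. Podocyte-like cells had 6 of 17 members down and none up, against 7.14% and 4.40% of all genes. Of the 6, Kcna6 and Kcnq1ot1 led in that class, and the other 4 were genes of other classes at low levels, namely Kcnj15 (4.03, 0.354 and 0.266 CPM), Kcnj16 (6.54, 2.71 and 0.625 CPM), Kcnk5 (1.35, 0.393 and 0.591 CPM) and Kcnn3 (1.32, 0.216 and 0.116 CPM). The summed PTEC markers in podocyte-like cells were also lower in the IRI libraries, at 376.8, 17.5 and 13.8 CPM. By contrast, the PEC markers summed to 243.0, 290.6 and 288.6 CPM and the distal convoluted tubule markers to 9.27, 9.37 and 0.903 CPM. These are the markers of the classes in which Kcnn3 and Kcnj16 led. The podocyte markers summed to 39830, 35990 and 37250 CPM, and the part of free RNA in these 4 genes was not tested.

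**Figure D5:**
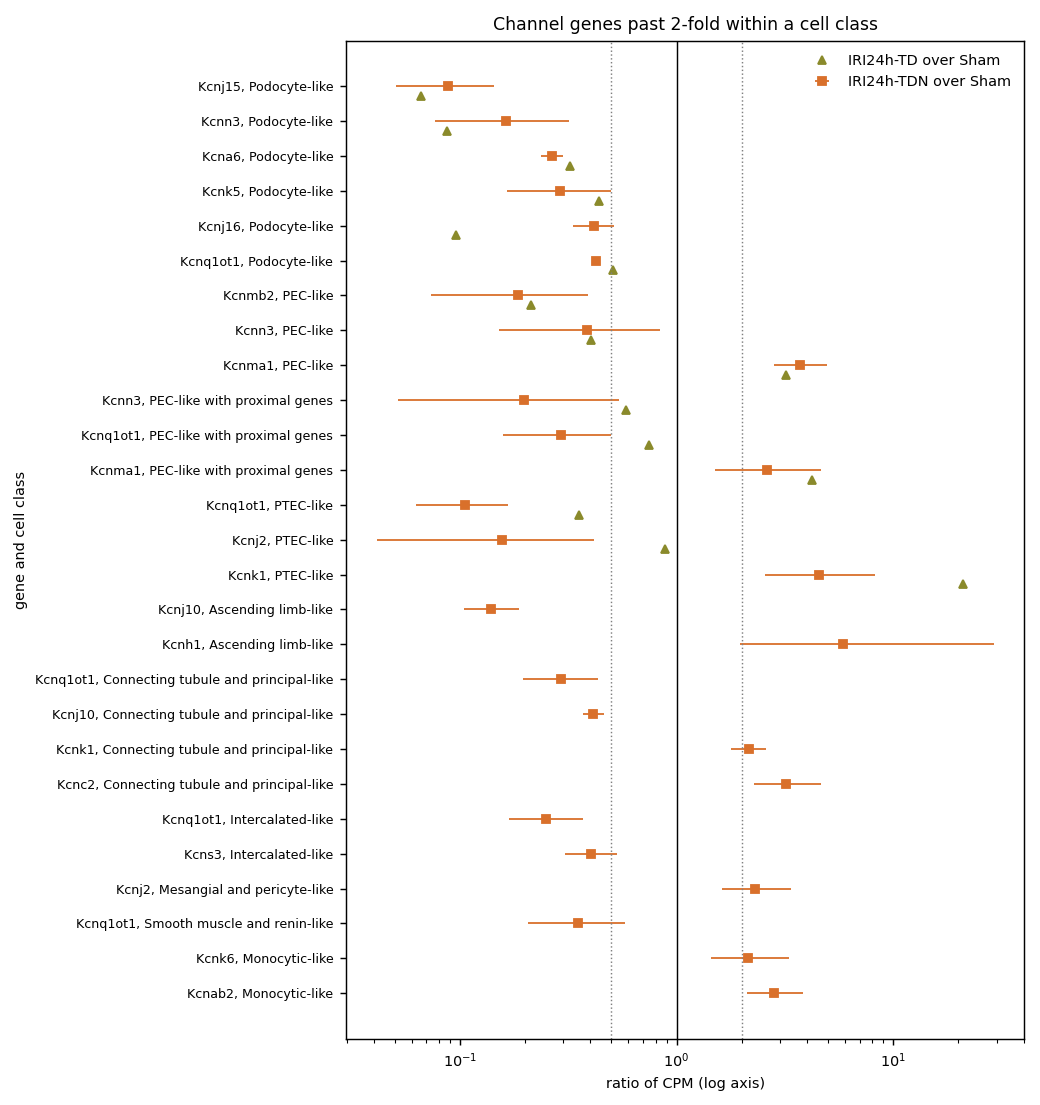
Ratio of CPM in IRI24h-TDN to CPM in Sham on a log axis for the 27 pairs past 2-fold of a class and a gene named in the text, with exact conditional 95% intervals (counting error only, 1 library per group). Triangles give IRI24h-TD over Sham where the class holds 50 cells there, dotted lines mark 2-fold, the 9 pairs above 1 reach 5.89 (Kcnh1 in ascending limb-like cells) and the 18 below 1 reach 0.0879 (Kcnj15 in podocyte-like cells).

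Between both IRI libraries, podocyte-like cells differed little in these genes. Of 16 members with UMIs enough, none was 2-fold higher in IRI24h-TD and 3 were lower, Kcnh7, Kcnj16 and Kcnq1, against 0.140% higher and 1.28% lower of all genes. All 3 stood under 3 CPM in IRI24h-TDN. The ratios of Kcnf1, Kcnj12, Kcna6 and Kcng2 lay between 1.05 and 1.21.

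Of 22 listed genes that work with potassium channels without being one, 14 reached 20 CPM in some class, and of their 118 pairs with a class 14 were 2-fold up, 11 down and 93 neither. These were 11.9% and 9.32%, against 7.92% and 7.40% of all pairs of a gene and a class, endothelial-like cells included. Of the kinase pathway by which the distal tubule reads potassium, 7 listed genes were compared in each of the classes in which Kcnj10 fell. In connecting tubule and principal-like cells 2 fell and 5 did neither, against 5.60% down and 7.41% up of all genes. In ascending limb-like cells 2 fell, 1 (Sgk1) rose and 4 did neither, against 8.88% down and 9.59% up. Wnk1 and Klhl3 fell in both. Wnk1 went from 350.0 to 135.4 CPM in connecting tubule and principal-like cells and from 962.9 to 122.4 CPM in ascending limb-like cells, and Klhl3, the adaptor that targets it for degradation, from 77.6 to 24.8 CPM and from 68.96 to 10.97 CPM. As given above for Kcnj10, both the own markers and the distal convoluted tubule markers were also lower in these IRI24h-TDN cells. Their part in the falls of Wnk1 and Klhl3 was not tested. Atp4a, a potassium-absorbing proton pump, went from 283.1 to 11.2 CPM in connecting tubule and principal-like cells and from 111.4 to 13.2 CPM in intercalated-like cells. Sgk1, a kinase that raises channel and transporter activity, went from 15.4 CPM in podocyte-like cells of Sham to 186.6 CPM in IRI24h-TDN and 203.2 CPM in IRI24h-TD, and fell in PTEC-like cells from 85.2 to 40.6 CPM.

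Upstream windows were searched for 39 of the 55 members, at 57 starts, among 32851 windows of all genes. Members on chromosome 18, Kcng2 and Kcnn2, were left out by choice, a limit not set on the 32851 windows. The median GC content of the member windows was 58.0%, against 52.4% over all windows. Searched on both strands, the HNF1 half-site GTTAAT was in 3 of 57 member windows (Kcnab1, Kcnj16 and Kcns3) and in 6.43% of all windows, the GC box GGGGCGGGG in 7 and 10.4%, TATAAA in 1 and 12.4%, and the E-box CANNTG in 39 and 66.2%. The CArG box, by name, was in none and 1.47%, the EGR and WT1 core GCGTGGGCG in none and 0.536%, the forkhead site GTAAACA in none and 3.17%, and TAATTA in none and 4.84%. A CArG box can hold TATAAA or TAATTA within it, no other motif here holds another, and these matches describe the windows only.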

How the data were processed

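RNA of single cells was measured on the BD Rhapsody platform in 3 libraries. For each library the authors deposited whole-number UMI counts by gene and cell barcode, not normalized, and per the labels' processing notes CASAVA 1.8, UMI-tools, Seurat and the mm10 build were used. The paper names Harmony and the exclusion of multiplets. Limits on cells, the strand setting and the counting annotation are not given in the sources used here.

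From these counts, barcodes with at least 200 genes and at most 50% mitochondrial UMIs were kept (26760 of 30008). Each cell was scaled to a total of 10000 counts before a log transform. A principal component analysis on 2000 variable genes without Kcn genes (30 components), a Harmony correction between libraries written in numpy 2.4.6 and leidenalg 0.10.2 on 15 neighbours at resolution 2 gave 47 clusters, 11 of them unnamed. Names followed marker lists, with thresholds set after the clusters were seen. No doublet caller was run, and removal of the top 6% of UMIs was tried instead. Member, marker and partner lists were chosen with earlier results of these data known.

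UMIs were summed by class and library to CPM, using classes of at least 50 cells and libraries with at least 20 cells in a class. Named are every concentrated member, the 3 with the highest mean CPM in each class, every member past 2-fold and the genes of subunit pairs and partners reaching 20 CPM, of which the text gives those with a difference or a class of interest. Values of some genes that this rule names are not reported here, though the counts include them. IRI24h-TD is set beside where the class holds enough cells. A sum of 0 entered ratios as 3 counts. With 1 library per condition no test was run, and edgeR 4.0.16 and DESeq2 1.42.0 gave scaling factors only. Steps were tested on simulated data. Positions are from GENCODE M21 and upstream sequences from RefSeq (GRCm38.p6). Python 3.11.15, scipy 1.17.1, pandas 2.3.3 and R 4.3.3 were used. The closing section gives the effect of other filters, resolutions, scalings, limits and left-out libraries.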

Additional observations from a re-analysis of the deposited data

Results flagged for a closer look

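Kcnj2 moved in opposite directions in a pair of classes between Sham and IRI24h-TDN. The ratio was 0.156 in PTEC-like cells (8.60 to 1.34 CPM, from 72 and 4 UMIs) and 2.31 in mesangial and pericyte-like cells (66.6 to 153.8 CPM, from 39 and 164 UMIs). With 1 library per condition the difference was not tested. In IRI24h-TD, whose PTEC-like cells stood at 7.63 CPM, the PTEC-like value was near that of Sham. Cluster 17, with 425 of the PTEC-like cells of Sham and 25 of IRI24h-TDN, held 43 of the 72 Sham UMIs.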

How the results depend on the processing

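No paired analysis was possible because each group has 1 library. The 12 concentrated members became 19 at a 2-fold limit, 5 at 8-fold and 19 with mural classes joined and PEC classes joined, the last chosen after seeing the data. Of all genes, 18.5%, 4.49% and 10.2% were called under these settings. The members called numbered 11 to 13 under the other settings, against 6.36% to 9.72% of all genes. Without the Sham library 11 were called, with Kcng2, Kcnk13 and Kcnk2 lost, and without IRI24h-TDN 11, with Kcng2 and Kcnj12 lost. Without Harmony, Kcna6, Kcnh8 and Kcnk2 were lost. Of 167 single ratios of leading to next class under the alternatives, 108 moved by less than a counting interval, 59 moved by more and 0 reversed. This interval was drawn from the UMIs of the leading class alone and leaves out the counting error of the next class. The 2-fold and 8-fold limits could not move these ratios.

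The 30 pairs past 2-fold became 52 at a minimum of 20 UMIs, with 17 up and 35 down in place of 9 and 21, and 15 were up and 29 down at a 1.5-fold limit. The shares of all genes were not computed for the settings of this paragraph, so its counts have no background and show only how the calls depend on the settings. With edgeR's or DESeq2's factors the pairs became 33, which kept all 30 and added Kcnj15 in PTEC-like cells (down), Kcnk1 in intercalated-like and Kcnq1 in podocyte-like cells (up). At 500 genes and 20% mitochondrial UMIs 30 passed, 27 of them kept, and Kcnh1 and Kcnj10 in ascending limb-like and Kcnk1 in PTEC-like cells could not be compared. At resolutions 1 and 3, 31 and 30 passed, keeping 30 and 28, with Kcnk1 in PTEC-like cells not compared and Kcnma1 in PEC-like cells with proximal genes under the limit at resolution 3. Without the top 6% of UMIs they became 25, keeping 24, and without members under 1% of their leading level, chosen after seeing the data, 27. Of 287 single ratios under the alternatives, 282 stayed within their counting interval, 5 moved beyond it and 0 reversed. The 282 include ratios that could not move. Settings that changed only a limit (20 UMIs, 1.5-fold, 1% of the leading level) left every ratio as it was, and leaving out podocyte-like clusters left those of other classes. Leaving out the 2 low-UMI podocyte-like clusters, also chosen after seeing the data, kept the 12 concentrated members. With 1 library per condition, no setting speaks to the spread between animals.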
